A study of Mus musculus with 9 samples.

Results

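The class I antigen presentation genes of the hippocampus were examined as a set of 10 genes, taken from the count table by their symbols out of 54532 genes. The set holds the heavy chains H2-K1 and H2-D1, the light chain B2m, the peptide loading genes Tap1, Tap2 and Tapbp, the transactivator Nlrc5 and the immunoproteasome genes Psmb8, Psmb9 and Psmb10. These genes were selected with results of the Ant-134 and Scr comparison already known, so their difference between the groups is a description, and calls on them are given only as counts from which nothing is read. The mice were N4 Ube3a m-/p+ animals, a model of Angelman syndrome in which the allele inherited from the mother is mutated and the paternal allele is intact. They came from a line crossed for 4 generations onto a 129Sv/Ev background, and every mouse of both groups carried the mutation. On postnatal day 21, 5 mice received Ant-134, an oligonucleotide complementary to the microRNA miR-134, and 4 mice received Scr, a scrambled oligonucleotide, both at 0.5 nmol into the cerebral ventricles. All 9 mice went through an audiogenic seizure test on days 22, 24 and 26, and the hippocampus of the injected side was taken on day 27. Each library came from 1 mouse, and the labels give neither sex nor a batch.

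Class I molecules display peptides from inside the cell to CD8 T cells and natural killer receptors. The proteasome cuts proteins into peptides, Tap1 and Tap2 pump them into the endoplasmic reticulum, and Tapbp (tapasin) holds the empty heavy chain with B2m next to the pump until a peptide is bound. Interferon-gamma induces most of these genes, and Nlrc5 is a coactivator recruited to the class I promoters through a conserved module of X and Y boxes. In the brain class I transcripts are found in microglia and vessels, and also in neurons, where they have been linked to synapse pruning and plasticity.

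Total counts on genes ran from 28583298 to 41978113 per library. A comparison of the groups over 19782 genes by edgeR's quasi-likelihood test gave 827 genes (4.18%) with an unadjusted p below the threshold of 0.05 used by the study, 533 of them lower in Ant-134 and 294 higher (1.49%). None passed Benjamini-Hochberg adjustment in edgeR, whose smallest adjusted p was 0.09. Without the filter on low counts 14 genes passed in edgeR. DESeq2, run only without that filter, gave 18, but by default it applies its own filter on mean count before adjustment. The Ube3a transcript, which the mutation need not remove from the count, stood at 90.2 ± 6.26 CPM (SD, n = 5) in Ant-134 and 92.4 ± 4.81 (SD, n = 4) in Scr, where CPM is the count scaled to the size of its library after TMM normalisation. In bulk tissue, fewer cells of a type and less RNA per cell cannot be told apart.

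The members lie on 3 chromosomes (GRCm38). H2-K1, Tapbp, Psmb9, Tap1, Psmb8, Tap2 and H2-D1 lie in the major histocompatibility complex on chromosome 17, between positions 33915899 and 35267499, Nlrc5 and Psmb10 lie on chromosome 8, and B2m lies on chromosome 2. Psmb9, Tap1, Psmb8 and Tap2 follow one another from 34181988 to 34216321, a span of 34334 bases in which they were the only 4 genes tested.

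Promoter windows from RefSeq (GRCm38.p6, 300 bases around the transcript start, most of them before it) were found for 8 of the 10 members and read for motifs of class I regulation on both strands. They are shown for B2m and the heavy chains, which differed most in level between the groups among the members with a window, for Psmb8, and for Psmb10, which differed least. Capitals mark the matches. The B2m window lies at chr2:122147437-122147736 (+ strand), that of H2-K1 at chr17:34000298-34000597 (- strand), that of H2-D1 at chr17:35262844-35263143 (+ strand), that of Psmb8 at chr17:34197945-34198244 (+ strand) and that of Psmb10 at chr8:105938343-105938642 (- strand).
B2m: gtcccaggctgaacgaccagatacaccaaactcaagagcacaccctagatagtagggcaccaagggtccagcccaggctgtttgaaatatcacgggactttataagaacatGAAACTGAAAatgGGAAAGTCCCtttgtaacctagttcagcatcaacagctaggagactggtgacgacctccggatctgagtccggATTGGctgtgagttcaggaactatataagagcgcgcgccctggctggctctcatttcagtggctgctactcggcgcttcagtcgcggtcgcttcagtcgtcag
H2-K1: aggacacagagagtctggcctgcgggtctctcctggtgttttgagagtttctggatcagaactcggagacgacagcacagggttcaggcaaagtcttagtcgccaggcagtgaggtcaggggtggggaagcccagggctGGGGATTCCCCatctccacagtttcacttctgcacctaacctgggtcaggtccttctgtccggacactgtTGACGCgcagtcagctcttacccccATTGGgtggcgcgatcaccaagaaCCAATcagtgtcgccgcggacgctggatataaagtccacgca
H2-D1: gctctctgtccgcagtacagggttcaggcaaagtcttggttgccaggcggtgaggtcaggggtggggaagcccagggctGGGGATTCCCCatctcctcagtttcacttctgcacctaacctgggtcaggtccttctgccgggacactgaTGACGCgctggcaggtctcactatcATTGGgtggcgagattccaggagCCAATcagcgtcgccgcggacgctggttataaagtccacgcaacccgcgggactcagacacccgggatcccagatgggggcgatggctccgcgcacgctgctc
Psmb8: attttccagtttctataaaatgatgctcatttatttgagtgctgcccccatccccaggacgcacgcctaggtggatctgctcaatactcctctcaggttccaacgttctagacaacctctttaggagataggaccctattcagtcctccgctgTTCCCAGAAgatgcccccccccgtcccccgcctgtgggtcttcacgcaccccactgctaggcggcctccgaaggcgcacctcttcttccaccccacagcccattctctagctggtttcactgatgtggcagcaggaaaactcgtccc
Psmb10: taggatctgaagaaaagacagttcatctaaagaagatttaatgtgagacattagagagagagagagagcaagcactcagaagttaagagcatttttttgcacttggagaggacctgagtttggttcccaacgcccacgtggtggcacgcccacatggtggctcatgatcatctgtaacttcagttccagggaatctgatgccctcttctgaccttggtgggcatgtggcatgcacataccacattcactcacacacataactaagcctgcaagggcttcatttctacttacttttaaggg

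The Y box, the letters CCAAT bound by nuclear factor Y, was found in 6 of the 8 windows (B2m, H2-K1, H2-D1, Tap1, Tapbp and Psmb9), against 37.4% of all 32851 windows of the table. H2-K1 and H2-D1 both hold it once in each direction. The X2 box, searched as TGACGC, was found in H2-K1 and H2-D1 and in 7.4% of all windows. In H2-K1 it lies 41 bases and in H2-D1 101 bases before the start listed for each gene. A kB element, the site type bound by NF-kB, was found in 3 windows (B2m, H2-K1 and H2-D1) and in 4.51% of all windows. In both heavy chains the kB match is read on both strands, as 2 overlapping 10-base matches, since the searched motif allows several letters at some positions. An exact match to the interferon-stimulated response element core, searched as GAAANNGAAA, was found in B2m alone and in 3.44% of all windows. In B2m, 3 bases lie between it and the kB match. Sites that depart from the searched letters are missed, so the other windows cannot be said to lack such an element. The gamma-activated site, TTCNNNGAA, which reads the same on both strands, was found in Psmb8 alone and in 8.3% of all windows. Psmb10 held none of the 5 motifs. The windows of the 2 heavy chains share an identical run of 47 bases, which holds the kB match. It lies 141 to 95 bases before the listed start of H2-K1 and 201 to 155 before that of H2-D1. Distances in the 2 genes thus depend on where each start is listed. The windows of Tap1 and Psmb9 cover nearly the same bases on opposite strands, so their 1 Y box is the same one. These matches describe letters in a fixed window and say nothing of binding in these mice.

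The classical heavy chains had the lowest log2 fold changes of the members over all mice, with Nlrc5 level with H2-D1. H2-K1 reached 109.5, 117.9, 112.5 and 102.8 CPM in the Scr mice and 108, 58.6, 42.4, 49.9 and 52.0 CPM in Ant-134 replicates 1 to 5. Replicate 1 of Ant-134 stood inside the Scr range and the other 4 mice lay well under it. The mean was 62.2 ± 26.3 CPM (SD, n = 5) in Ant-134 and 110.7 ± 6.28 (SD, n = 4) in Scr, a log2 fold change of -0.83 (SE 0.27). H2-D1 reached 123.8, 126.3, 105.9 and 113.2 CPM in Scr and 98.7, 67.2, 52.4, 58.5 and 62.2 CPM in Ant-134. It was the only member whose groups did not overlap, in the sense that every Ant-134 mouse was below every Scr mouse, which held for 0.895% of all genes tested. Its log2 fold change was -0.79 (SE 0.18), a mean of 57.9% of the Scr level against 56.2% for H2-K1. The coefficient of variation of H2-K1 was 42.3% among the Ant-134 mice and 5.68% among the Scr mice.

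B2m, the light chain shared by the classical and most nonclassical class I molecules, was the most abundant member. Its level was 130.8, 150.3, 103.6 and 107.5 CPM in Scr and 125.4, 77.5, 54.6, 79.5 and 65.7 CPM in Ant-134. Replicate 1 again lay among the Scr mice, and the other 4 lay below all of them. The log2 fold change was -0.61 (SE 0.25), or 65.4% of the Scr mean. Per length, in FPKM, the sum of H2-K1 and H2-D1 over B2m was 0.538 ± 0.051 (SD, n = 5) in Ant-134 and 0.624 ± 0.0725 (SD, n = 4) in Scr, with overlapping mice.

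The loading genes showed smaller differences, again with replicate 1 the highest of the Ant-134 mice. Tap1, one arm of the peptide pump, reached 17.4, 9.38, 6.87, 8.97 and 9.10 CPM in Ant-134 and 11.9, 11.8, 15.3 and 16.7 CPM in Scr. Replicate 1 was the highest of all 9 mice, and replicates 2 to 5 were below every Scr mouse. Its log2 fold change was -0.43 (SE 0.26). Tap2, the other arm, ran from 8.19 to 9.60 CPM in replicates 2 to 5, stood at 14.6 in replicate 1 and ran from 10.5 to 12.5 in Scr (log2 fold change -0.22, SE 0.16). Tapbp stood at 59.1, 36.2, 34.1, 33.5 and 33.7 CPM in Ant-134 and at 47.0, 45.8, 52.3 and 42.1 CPM in Scr. Replicate 1 was thus also the highest of all mice for Tapbp, and the log2 fold change over all 5 was -0.25 (SE 0.18). Without replicate 1 the log2 fold changes were -0.70 for Tap1, -0.40 for Tap2 and -0.44 for Tapbp.

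Nlrc5, the class I transactivator, was the scarcest member per length and had 46 to 202 counts per library. It reached 5.67, 2.44, 1.64, 2.49 and 2.05 CPM in Ant-134 and 4.61, 3.41, 5.93 and 5.92 CPM in Scr. Only replicate 1 of Ant-134 lay within the Scr range. The log2 fold change was -0.79 (SE 0.34), as large as that of H2-D1 with a wider error, and it was -1.19 without replicate 1.

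The immunoproteasome genes encode the 3 catalytic subunits that replace those of the standard proteasome after interferon. Psmb8 (LMP7, in the place of Psmb5) stood at 9.35, 6.91, 4.66, 6.16 and 5.33 CPM in Ant-134 and at 8.96, 8.80, 9.94 and 10.6 CPM in Scr. The 4 mice other than replicate 1 lay below every Scr mouse, and the log2 fold change was -0.56 (SE 0.17). Psmb9 (LMP2, in the place of Psmb6) stood at 4.69, 3.20, 1.5, 2.55 and 3.64 CPM in Ant-134 and at 3.42, 3.59, 4.11 and 5.57 CPM in Scr, with 3 Ant-134 mice below all Scr mice and a log2 fold change of -0.41 (SE 0.27) that was -0.24 without replicate 3. Psmb10 (MECL-1, in the place of Psmb7) was unlike the other members, at 33.2, 30.4, 31.9, 24.8 and 33.7 CPM in Ant-134 and 31.7, 31.3, 32.0 and 35.2 CPM in Scr. Replicates 2 and 4 lay below every Scr mouse and the other 3 Ant-134 mice within the Scr range, and the log2 fold change was -0.08 (SE 0.08), or -0.01 without replicate 4.

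**Figure D1:**
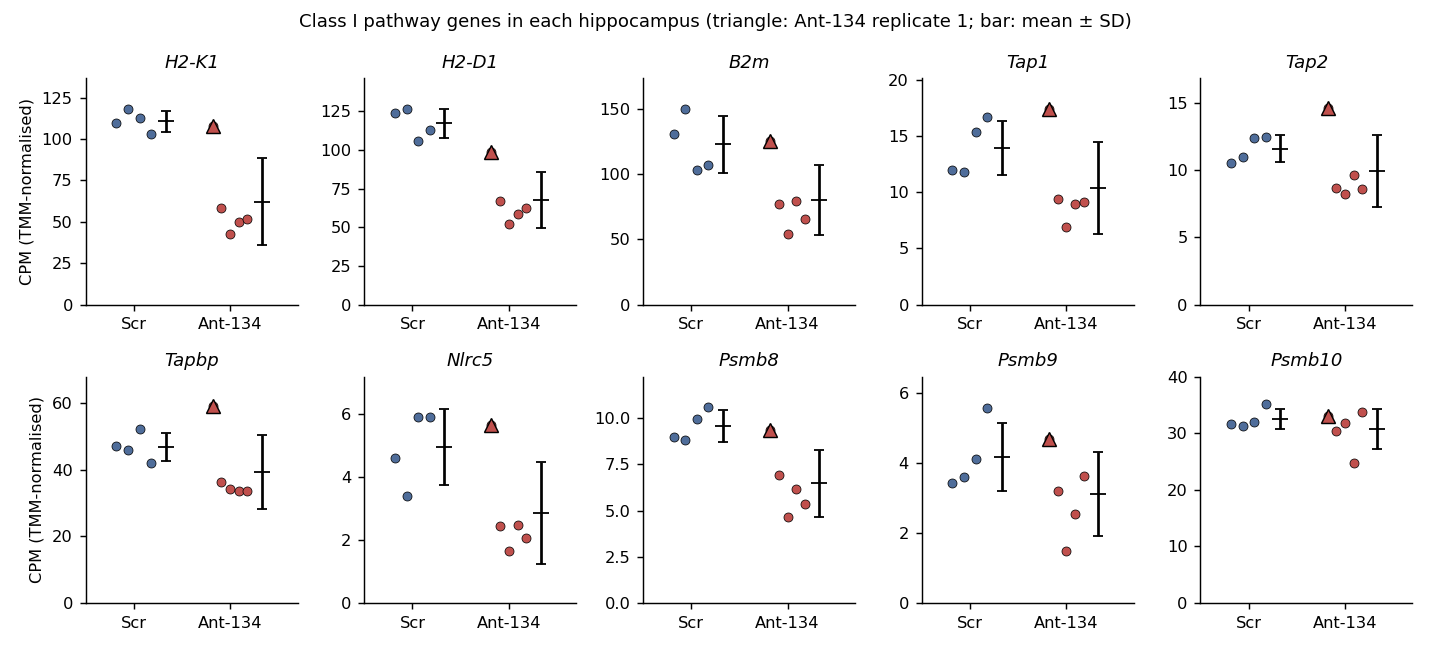
Level of each member in CPM (vertical axes from 0) in the 4 Scr and 5 Ant-134 mice, 1 point per hippocampus, with the mean ± SD beside the points and Ant-134 replicate 1 as a triangle. For 8 members, 4 of the 5 Ant-134 mice lie below every Scr mouse, while replicate 1 lies near or above the Scr mice.

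The induced subunits were set against the standard ones in FPKM, so that the levels are per length. Psmb8 made up 4.70%, 3.58%, 2.35%, 3.70% and 2.53% of the sum of Psmb8 and Psmb5 in Ant-134 replicates 1 to 5 and 4.53% to 5.22% in Scr. All Ant-134 mice but replicate 1 were below the Scr range, and the mean difference in the log2 ratio was -0.61. Psmb9 made up 1.93% ± 0.679 (SD, n = 5) of its pair with Psmb6 in Ant-134 and 2.63% ± 0.614 (SD, n = 4) in Scr. Psmb10 made up 49.3% ± 2.61 (SD, n = 5) of its pair with Psmb7 in Ant-134 and 50.1% ± 2.16 (SD, n = 4) in Scr. This share depends on the deposited gene lengths, 1705 bases for Psmb10 and 3421 for Psmb7. In CPM, which is not divided by length, Psmb10 was at 30.81 and Psmb7 at 63.34 in Ant-134. In Scr they were at 32.55 and 65.1 CPM. The 3 standard subunits themselves had log2 fold changes from -0.04 to 0.02.

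**Figure D2:**
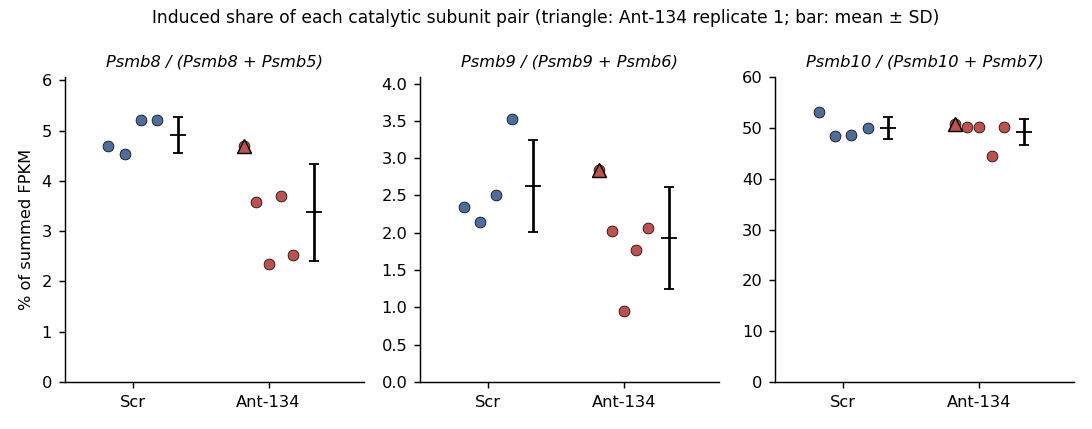
Share of each induced catalytic subunit in the summed FPKM of its pair, in percent, per mouse (points, with mean ± SD; triangle, Ant-134 replicate 1). Psmb8 is at 2.35% to 4.70% in Ant-134 and 4.53% to 5.22% in Scr, while Psmb10 stays between 44.6% and 53.2% in all mice.

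Per length, the members spanned a wide range of levels. The mean FPKM over the 9 mice was 114.5 for B2m, 34.5 for H2-D1, 31.8 for H2-K1, 18.4 for Psmb10, 12.8 for Tapbp, 2.85 for Psmb8, 2.79 for Tap2, 2.16 for Tap1, 0.970 for Psmb9 and 0.442 for Nlrc5. The order of neighbours held in every mouse except between H2-D1 and H2-K1, between H2-K1 and Psmb10 and between Psmb8 and Tap2. Among the genes tested, B2m stood at the 98.5th percentile of mean FPKM and Nlrc5 at the 16.6th. The heavy and light chains were thus among the more abundant transcripts of this tissue, and the transactivator among the scarcer ones.

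All 10 members were tested in the fit and all 10 had a log2 fold change below 0, as did 48.8% of all genes. The median was -0.49 (from -0.83 to -0.08) against 0.00 over all genes tested. At an unadjusted p below 0.05, 5 members (H2-K1, H2-D1, B2m, Nlrc5 and Psmb8) were lower in Ant-134, beside 2.69% of all genes, and none was higher. For 8 members at least 4 of the 5 Ant-134 mice lay below every Scr mouse, beside 4.5% of all genes. No member passed adjustment in edgeR, with or without the filter on low counts. In DESeq2, with only its own default filter before adjustment, 1 did, H2-D1. Since the members were chosen on this contrast, nothing is read from these shares.

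Replicate 1 of Ant-134 set the spread of its group. It was the highest Ant-134 mouse for 9 of the 10 members (Psmb10 being the exception), and replicate 3 was the lowest of all 9 mice for 8. The median over members of the log2 difference from the Scr mean was 0.12 in replicate 1 and -0.51, -1.09, -0.62 and -0.72 in replicates 2 to 5, while the Scr mice ran from -0.06 to 0.11. Without replicate 1, which was singled out after its values had been seen, the members' median log2 fold change was -0.71. Calls on the members in that fit follow from the choice of genes and of mouse, so nothing is read from them.

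**Figure D3:**
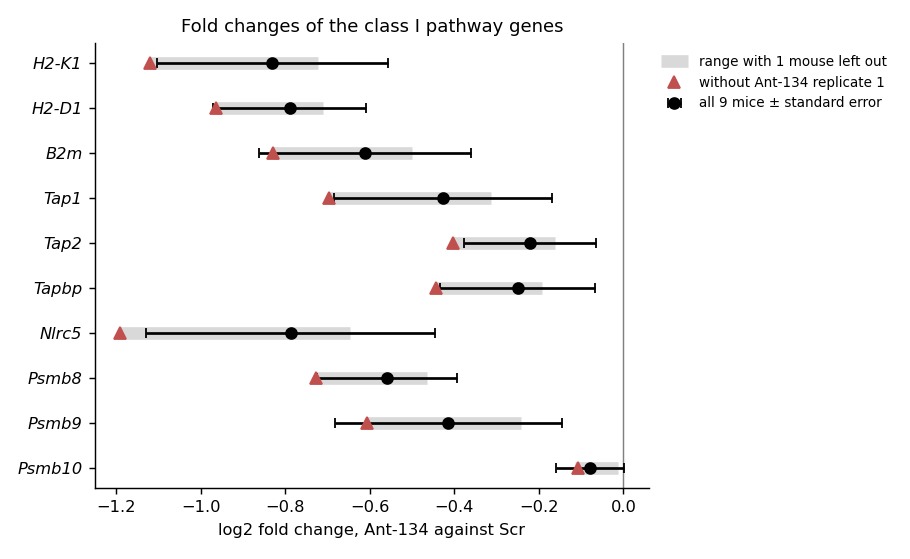
Log2 fold change of each member, Ant-134 against Scr, with its standard error (black), the range when 1 mouse is left out (grey) and the value without Ant-134 replicate 1 (triangle). Without replicate 1 H2-K1 is at -1.12 and Nlrc5 at -1.19, whereas Psmb10 stays within 0.12 of 0 in every fit.

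The members varied together from mouse to mouse. After the group means were subtracted, the median Pearson correlation over the 45 pairs of members was 0.769 across the 9 mice, which share their libraries. Psmb10 had a median r of 0.252 with the other members, and each other member had at least 0.683. Within the 5 Ant-134 mice the median over pairs was 0.94, and within the 4 Scr mice it was -0.184. Without Ant-134 replicate 1 the median was 0.161, with pairs from -0.59 to 0.881, so most of this covariation rested on that mouse. Among the 8 remaining mice the pairs with the highest r were Tap1 with Nlrc5 (0.881), with Psmb9 (0.868) and with Psmb8 (0.821), followed by Nlrc5 with Psmb8 (0.818). B2m with H2-D1 (0.81) and H2-K1 with H2-D1 (0.808) were also high, H2-K1 with Psmb8 was at 0.584, Tap2 with Psmb9 at 0.508 and H2-D1 with Tap1 at 0.048.

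**Figure D4:**
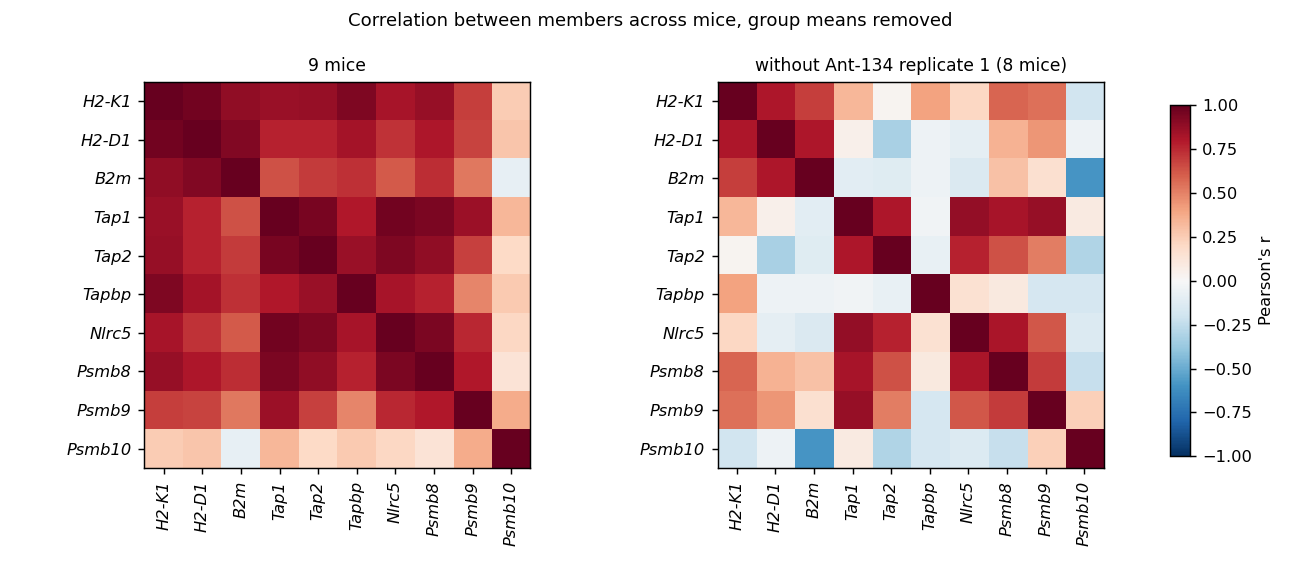
Pearson's r between members across mice after subtracting group means, in all 9 mice (left) and without Ant-134 replicate 1 (right), on a colour scale from -1 to 1. The median over pairs is 0.769 on the left and 0.161 on the right, where the highest value is that of Tap1 with Nlrc5 (0.881).

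Among 16011 genes with a mean of at least 1 CPM, the genes outside the set whose log2 CPM followed the members' mean profile most closely over the 9 mice were Nudt7 (r = 0.971), H2-T23 (0.971), Pld1 (0.97), Gbp3 (0.961), H2-Q7 (0.953), H2-Q4 (0.95), Cfap161 (0.942) and Oas1b (0.934). H2-T23, H2-Q7 and H2-Q4 encode further class I heavy chains, Gbp3 an interferon-induced GTPase and Oas1b a member of the oligoadenylate synthetase family. With group means removed, the closest were Pld1 (0.967), Dock5 (0.965), Mlf1 (0.963), H2-Q7 (0.961), Zfp568 (0.956), H2-T23 (0.952), Ifit1 (0.95) and Nudt7 (0.943). The profile with group means removed stood at 1.99 in Ant-134 replicate 1 and between -1.13 and 0.25 in the other 8 mice, so these values lean on that library. All these correlations describe 9 shared libraries and carry no p.

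The other genes of the pathway, 126 in the table and 110 tested, were read from lists of known members. Of them 13 were lower in Ant-134 at an unadjusted p below 0.05 in edgeR's quasi-likelihood test, beside 2.69% of all genes, and none was higher. None passed Benjamini-Hochberg adjustment in edgeR (smallest adjusted p = 0.897), and none did in DESeq2 with only its own default filter. Without Ant-134 replicate 1, 48 were lower, beside 3.6% of the 19581 genes then tested, and 1 was higher. In that fit 7 (Gbp3, Rtp4, Isg15, H2-Q4, H2-Q7, Ifi27 and Irgm2) were lower past adjustment, beside 0.0868% of all genes. Both the lists and the mouse left out were chosen with values of these data known, so nothing is read from the counts of that fit, and the cause of the shift was not tested.

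Of the nonclassical and other class I heavy chains, 13 were tested, 11 had a log2 fold change below 0 and the median was -0.40. H2-Q7, a member of the Qa group, was the only one past the unadjusted threshold, at 2.37 ± 1.60 CPM (SD, n = 5) in Ant-134 and 6.43 ± 0.449 (SD, n = 4) in Scr. Its log2 fold change was -1.43 (SE 0.36), with an adjusted p of 0.987 in edgeR. All 5 Ant-134 mice lay below every Scr mouse, as for 0.895% of all genes tested. The most abundant of this list, H2-T23 (Qa-1, a ligand of natural killer receptors), H2-T24 and H2-Q4, had log2 fold changes of -0.75 (SE 0.34), -0.39 (SE 0.29) and -0.83 (SE 0.39). H2-M1 and H2-M9 were listed at 0 in all libraries. Summed over the list, the FPKM was 35.9, 19.4, 12.9, 17.4 and 16.1 in Ant-134 replicates 1 to 5 and 30.0 to 32.1 in Scr, so replicate 1 was above every Scr mouse and the other 4 were below them.

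Of the class I-like genes, 5 were tested and 2 were lower at an unadjusted p below 0.05, beside 2.69% of all genes. Mr1, which presents vitamin metabolites to innate-like T cells, had a log2 fold change of -0.30 (SE 0.12) and Procr, the endothelial protein C receptor, of -0.59 (SE 0.18), each with 4 of 5 Ant-134 mice below every Scr mouse and an adjusted p of 0.998 in edgeR. Fcgrt, the neonatal Fc receptor, and Hfe, the iron regulator, which also pair with B2m, were at -0.07 (SE 0.09) and -0.18 (SE 0.27).

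The general chaperones that the loading complex borrows from the endoplasmic reticulum did not share the members' lower levels. Calr, Canx and Pdia3 had log2 fold changes of 0.02 (SE 0.06), 0.07 (SE 0.04) and -0.04 (SE 0.04). For Canx all 5 Ant-134 mice lay above every Scr mouse, at a mean of 321.4 against 305.3 CPM. The share of all genes that do so was not counted. In contrast, Tapbpl (TAPBPR, a peptide editor) and Erap1 (the peptidase that trims peptides) were lower at an unadjusted p below 0.05, with -0.34 (SE 0.12) and -0.38 (SE 0.12), 3 and 4 of 5 Ant-134 mice below every Scr mouse and adjusted p = 0.998 for both in edgeR. The median of the 8 genes of this list was 0.02.

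The standard proteasome showed no call. Psmb5, Psmb6 and Psmb7 were at 0.01 (SE 0.06), 0.02 (SE 0.06) and -0.04 (SE 0.06), and none of 11 other subunits of the 20S core passed the unadjusted threshold, with a median of 0.02 and Psma6, Psmb4 and Psmb2 at 0.03 (SE 0.04), 0.00 (SE 0.05) and 0.07 (SE 0.05). Of 6 proteasome activators and assembly factors, 1 was lower at an unadjusted p below 0.05, the interferon-inducible PA28 subunit Psme2 at -0.24 (SE 0.10; 3 of 5 Ant-134 mice below every Scr mouse, adjusted p = 0.998 in edgeR). Psme1, its partner, was at -0.13 (SE 0.08), Psme3 at -0.02 (SE 0.04) and Pomp at -0.02 (SE 0.05).

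Of 12 regulators of class I transcription, 1 was lower at an unadjusted p below 0.05, Irf1 (interferon regulatory factor 1), with a log2 fold change of -0.28 (SE 0.13), 2 of 5 Ant-134 mice below every Scr mouse and an adjusted p of 0.998 in edgeR. Rfxap, which binds the X box, Nfyc, which binds the Y box, and Rela, an NF-kB subunit, were at 0.03 (SE 0.06), -0.01 (SE 0.06) and -0.10 (SE 0.06). None of 8 tested interferon receptor and signalling genes passed, with Jak1 at 0.04 (SE 0.06), Ifngr2 at 0.02 (SE 0.05) and Ifnar1 at -0.06 (SE 0.04). Of 10 receptors of class I molecules only 3 were tested and none passed, with Pirb, a neuronal and myeloid receptor, at -0.06 (SE 0.29), Lilrb4a at 0.00 (SE 0.21) and Klra2 at -0.44 (SE 0.30).

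Among the lists closest in function, interferon-gamma-induced GTPases had the lowest median in edgeR. All 14 had a log2 fold change below 0 and the median was -0.70. At an unadjusted p below 0.05, 6 were lower (Gbp2, Gbp4, Gbp5, Gbp6, Gbp9 and Tgtp2), beside 2.69% of all genes. They ran from -0.69 (SE 0.18) for Gbp9 to -1.07 (SE 0.44) for Tgtp2, with adjusted p from 0.897 to 0.998 in edgeR. For 5 of the 6 at least 4 of the 5 Ant-134 mice were below every Scr mouse, beside 4.5% of all genes, Gbp2 with 3 being the exception. The 6 had already passed the threshold, so nothing is read from this count. The abundant Gbp3 and Igtp were at -0.66 (SE 0.39) and -0.56 (SE 0.39). All 20 type I interferon response genes also had a log2 fold change below 0 with a median of -0.34, none passed the unadjusted threshold, and Ifitm3, Bst2 and Ifi27, the most abundant, were at -0.39 (SE 0.28), -0.62 (SE 0.47) and -0.27 (SE 0.17). The median of this list was -0.84 without Ant-134 replicate 1 and -0.17 without replicate 3. Over the alternatives other than leaving out a mouse it ran from -0.601 to -0.337. On log2(FPKM + 1) in limma the order of both lists turned, with a median of -0.35 for the GTPases and -0.40 for the type I list. The summed FPKM of the type I list was 375 in Ant-134 replicate 1, 127 to 180 in the other 4 Ant-134 mice and 245 to 270 in Scr. The GTPase sum was 32.0, 10.4 to 15.3 and 21.8 to 30.1 in the same order, so replicate 1 was the highest of all 9 mice for both lists.

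Class II genes, which serve CD4 T cells and depend on Ciita, a relative of Nlrc5, did not share this order of mice. Their 7 log2 fold changes had a median of -0.22 with no call, and with 1 mouse left out the median ran from -0.50 (without Ant-134 replicate 2) to 0.10 (without Scr replicate 4). Cd74, H2-DMa and H2-Ab1 were at -0.33 (SE 0.41), -0.10 (SE 0.08) and -0.41 (SE 0.51). The summed FPKM was 37.0 in Ant-134 replicate 1, 28.0 to 66.8 in the other 4 Ant-134 mice and 40.2 to 93.4 in Scr.

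**Figure D5:**
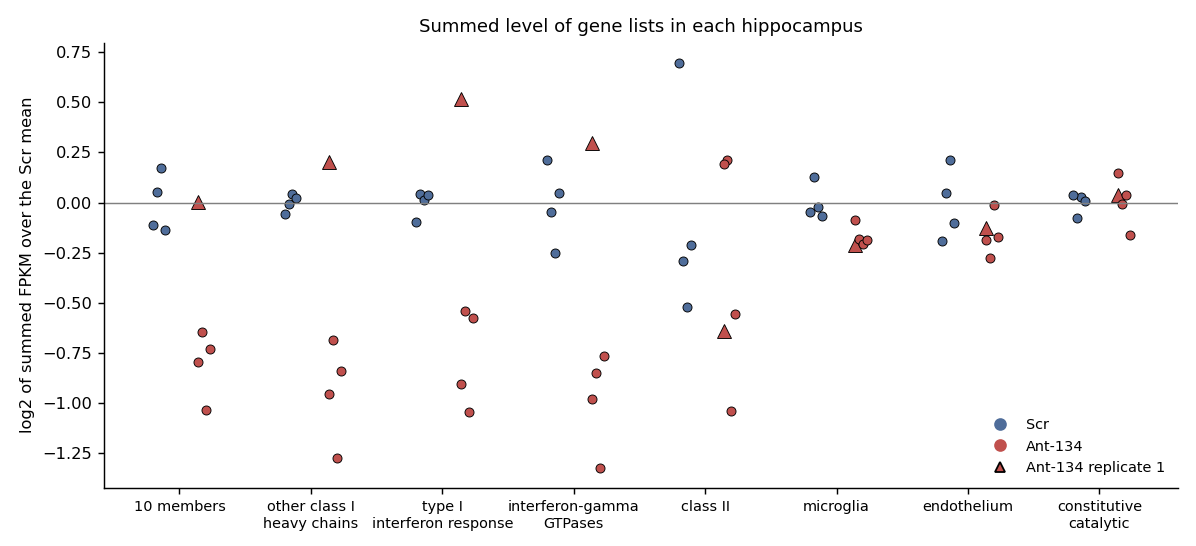
Summed FPKM of gene lists in each mouse as log2 over the Scr mean (blue, Scr; red, Ant-134; triangle, Ant-134 replicate 1). The members, other class I heavy chains, type I interferon genes and GTPases place replicate 1 near or above the Scr mice and the other 4 Ant-134 mice below them, whereas the microglial markers place all 5 Ant-134 mice below the Scr mice and the class II genes overlap between the groups.

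Markers of the cell types that carry class I were read in the same mice. The 15 microglial markers summed to 300, 307, 301, 306 and 327 FPKM in Ant-134 and 332 to 380 in Scr. Of their log2 fold changes 15 of 15 were below 0, with 7 lower at an unadjusted p below 0.05 (2.69% of all genes were). The median was -0.19, and -0.113 without Scr replicate 1. Replicate 1 was the lowest mouse for this sum, unlike for the members. The endothelial markers summed to 84.8 to 102 FPKM in Ant-134 and 90.0 to 119 in Scr (10 of 10 below 0, 1 called, median -0.15). With 1 mouse left out this median ran from -0.227 (without Scr replicate 4) to -0.0849 (without Scr replicate 2). The mural markers (49.1 to 56.1 against 53.2 to 73.1, 6 of 6 below 0, 1 called), the meningeal fibroblast markers (143 to 344 against 243 to 388, 8 of 8 below 0, 5 called lower, median -0.46) and the border macrophage markers (6.19 to 7.60 against 6.30 to 8.60, 5 of 8 below 0, 2 called) overlapped between the groups in these sums. Ptgds (mean 245.8 FPKM) made up most of the fibroblast sum. Of the fibroblast markers, Lum and Slc6a13 had all 5 Ant-134 mice below every Scr mouse (0.895% of all genes did), and the others had 3 or 4. T and NK cell markers summed to 0.603 to 0.970 FPKM in Ant-134 and 0.751 to 1.51 in Scr, with 2 of 10 abundant enough to be tested. Dendritic cell markers summed to 2.95 to 3.28 and 2.71 to 3.26 FPKM, with 3 of 5 tested below 0 and 1 lower at an unadjusted p below 0.05. None of these markers passed Benjamini-Hochberg adjustment in edgeR (smallest adjusted p = 0.909, of a microglial marker). The part of any of these cell types in the members' levels was not tested.

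The neural markers checked the tissue label. Hippocampal neuron markers summed to 318 to 346 FPKM in Ant-134 and 289 to 320 in Scr, with 11 of 12 log2 fold changes above 0, a median of 0.11 and 1, Dsp, higher at an unadjusted p below 0.05. Astrocyte markers ran from 629 to 706 and from 579 to 746 FPKM, and oligodendrocyte markers from 1270 to 2220 and from 1620 to 1780. Choroid plexus markers, which mark a neighbouring tissue, summed to 2010 FPKM in Ant-134 replicate 1, 40.4 to 527 in the other Ant-134 mice and 49.7 to 1590 in Scr. The Scr mouse with 1590 FPKM was replicate 3, in which Tapbp was the highest and B2m and H2-D1 the lowest of the Scr mice. Red cell markers summed to 509 FPKM in Ant-134 replicate 3, the mouse with the lowest members, and 55.2 to 147 in the other 8 mice. The part of choroid plexus or blood RNA in these values was not tested.

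Reads of the members could be shared with other genes to a limited extent. Of the 150-base stretches of the transcripts, 35 of 1953 of H2-D1 (1.79%) also occurred in H2-Q1, and no stretch of the other 9 members occurred in another gene. The H2-K1 and H2-D1 transcripts were 67.2% identical over their alignment, gaps included. Tap1 and Psmb9 overlap by 212 bases on opposite strands, and B2m lies inside Patl2 and Psmb10 inside the antisense gene Gm16156 on opposite strands, at mean levels of 0.163 and 0.139 CPM for the overlapping genes. Tapbp overlaps Zbtb22 (31.4 CPM) by 3421 bases on the same strand. How strand was used in the counting is not given in the sources used here, so reads from such pairs cannot be told apart.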

How the data were processed

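RNA-seq of 9 hippocampi was analysed (5 Ant-134, 4 Scr, grouped by the sample labels). Per the submitters' processing notes the authors used CASAVA 1.8, HISAT2 2.0.5 on mm10 (GRCm38) and featureCounts 1.5.0-p3. They deposited counts per gene without normalization for 54532 genes, and FPKM values, scaled by the authors to gene length and library total. That length can exceed a transcript's, with 3659 bases for Psmb9 against 1352 for its longest coding transcript. For B2m both were 860 bases. Levels and ratios in FPKM between genes depend on these lengths. The 10 genes and all lists were chosen with earlier results of these data known.

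The counts were analysed in R 4.3.3 with edgeR 4.0.16: filterByExpr with a minimum count of 10 (19782 of 37454 genes with a count), TMM scaling and the robust quasi-likelihood test of Ant-134 against Scr without covariates, with Benjamini-Hochberg adjustment over all genes tested. The biological coefficient of variation was 11.9%. The study's threshold, an unadjusted p below 0.05, was kept. Levels are CPM, and FPKM where genes are compared. Depth of 28583298 to 41978113 counts per library sets the counting error. No pair of libraries of the same group agreed within counting noise (chi-square per gene 8.3 to 21.1). The alternatives were DESeq2 1.42.0, its size factors in edgeR, other filters, no robust estimation, a replicate block, a covariate of Y-linked genes, limma 3.58.1 on log2 FPKM with a pseudocount of 1 or 0.1, and leaving out each mouse.

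Named besides the 10 genes were, in each pathway list, genes with an unadjusted p below 0.05 and the 3 with the highest FPKM, the 8 genes closest to the members' mean standardized profile over all mice and the 8 closest with group means removed, and Ube3a. Replicate 1 of Ant-134, the pathway genes past adjustment without it, and the markers Dsp, Ptgds, Lum and Slc6a13 were singled out after their values were seen. Promoter windows came from RefSeq, 300 bases each. The start of the first listed window was used for H2-K1, which has 2. Transcripts of GENCODE for GRCm38 gave the shared 150-base stretches, and Biopython 1.88 the alignment. Tap2 and Nlrc5 windows and protein sequences were not used here.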

Additional observations from a re-analysis of the deposited data

Results flagged for a closer look

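Over both treatment groups, 1 mouse lay far from the others of its group, by Dixon's criterion at the 95% level, in 13 of 76 groups of values examined, where chance gives about 3.8. All 13 were in the Ant-134 group. Replicate 1 was far above the rest of its group for H2-K1 (108 CPM, others 42.4 to 58.6), Tap1 (17.4 CPM, others 6.87 to 9.38), Tap2 (14.6 CPM, others 8.19 to 9.60), Tapbp (59.1 CPM, others 33.5 to 36.2) and Nlrc5 (5.67 CPM, others 1.64 to 2.49). The same mouse was far above the rest in the summed FPKM of the other class I heavy chains (35.9, others 12.9 to 19.4), of the type I interferon response genes (375, others 127 to 180), of the interferon-gamma GTPases (32.0, others 10.4 to 15.3) and of choroid plexus markers (2010, others 40.4 to 527). Replicate 4 was far below the rest in the log2 FPKM ratio of Psmb10 to Psmb7 (-0.312, others 0.011 to 0.055) and in the summed FPKM of the class I-like genes (10.9, others 13.1 to 13.7). Replicate 5 was far above the rest in microglial markers (327 FPKM, others 300 to 307), although below every Scr mouse. Replicate 3 was far above the rest in red cell markers (509 FPKM, others 87.7 to 147).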

How the results depend on the processing

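Over the alternatives other than leaving out a mouse, each of the 10 members kept a log2 fold change below 0, 4 to 7 members passed the unadjusted threshold, and their median ran from -0.571 to -0.288. DESeq2, with no filter on low counts but its own default one before adjustment, gave 18 genes past adjustment, 1 of them a member. In edgeR with no such filter 1775 genes passed the unadjusted threshold (1211 lower, 564 higher) and 14 passed adjustment, none of them a member. Limma gave 450 higher genes on log2(FPKM + 1) and 471 on log2(FPKM + 0.1), with 21 other pathway genes in each, and 1467 genes (935 lower, 532 higher) on all genes above 0. The covariate of Y-linked genes gave 23 other pathway genes. The median log2 fold change of the other class I heavy chains ran from -0.565 (replicate block) to -0.16 (limma on all genes above 0), and that of the class II genes from -0.451 (replicate block) to -0.18 (Y-linked covariate). With only the 100 bases before the listed start, 0 members matched the ISRE core, 1 the X2 box and 0 the kB element.

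Same-numbered mice did not deviate together over all genes (correlations from -0.115 to 0.012). Such correlations cannot exclude a pairing that touches few genes. The paper calls the Scr-treated mice littermates, and the labels give no litter, so any pairing could not be used. The replicate block gave 808 genes past the unadjusted threshold and 2 past adjustment (Adgre1 and Cxcl13, no members), with 4 members past the unadjusted threshold.

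With 1 mouse left out, 629 to 973 genes passed the unadjusted threshold (435 to 704 lower, 194 to 386 higher) and 0 to 17 passed adjustment. The members past the threshold numbered 3 to 9 (0 to 4 after adjustment) and the other pathway genes 8 to 49 (0 to 7 after adjustment), each highest without Ant-134 replicate 1, and nothing is read from the calls on members. The members' median ran from -0.712 to -0.388, the log2 ratio differences from -0.749 to -0.49 for Psmb8 over Psmb5, -0.678 to -0.275 for Psmb9 over Psmb6 and -0.0826 to 0.0157 for Psmb10 over Psmb7, and the median correlation from 0.161 to 0.847. The cause of these shifts was not tested. Psmb9 (42 to 190 counts per library) and Nlrc5 (46 to 202) had the least depth of the members, and over the other alternatives their log2 fold changes ran from -0.538 to -0.217 and from -0.958 to -0.249.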
